A study of Mus musculus with 15 samples.

Results

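The 10 genes described here encode the chaperones, proteases and one transcription factor that serve as the usual readout of the mitochondrial unfolded protein response. They are Hspd1, Hspe1, Hspa9, Trap1, Lonp1, Clpp, Clpx, Yme1l1, Afg3l2 and Atf5, chosen by name, and all 10 were among the 16154 genes of the deposited count table. Most mitochondrial proteins are made in the cytosol, imported unfolded and folded by resident chaperones, while damaged or surplus chains are cut up by resident proteases. When folding capacity falls short, a nuclear response raises the transcripts of these chaperones and proteases, with Atf5 among the factors proposed to carry the signal in mammals. In hematopoietic stem cells (HSC), which are held in low metabolic activity for long periods, this response has been linked to the transition out of quiescence.

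RNA was measured in HSC from 15 C57BL/6 mice, all described as female. The groups were 5 young mice of 6 to 12 weeks, 5 aged mice of 20 to 24 months, and 5 aged mice of 20 to 24 months that received nicotinamide riboside (NR), a precursor of NAD, at 3 mg/ml for 2 months. HSC were sorted as Lin-Sca-1+cKit+CD150+CD48- cells from individual mice, and no young mice treated with NR were sequenced here. Aged against young asks what age does to these transcripts, NR-treated aged against aged asks what NR does in old mice, and the last pair sets NR-treated aged beside young. The aged libraries enter both of the first comparisons, so a value that is high or low in them moves both in opposite directions.

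Library totals ranged from 764119 counts (aged mouse 2) to 13318989 counts (aged mouse 3), with group medians of 2685764 in young, 6007460 in aged and 3162434 in NR-treated aged. Levels are given in CPM, the counts scaled to a library total of 1000000 after normalization. Summed marker levels are the exception, scaled to the raw library totals without that normalization. All 14 HSC markers were found in every library, and their summed level of 2515 to 3292 CPM overlapped between groups. Single markers did not all overlap, and 5 of the 14 (Slamf1, Ly6a, Procr, Hoxb5 and Mllt3) were higher in every aged than in every young library. Likewise 3 (Ly6a, Procr and Hoxb5) were higher in every NR-treated aged than in every young library. Slamf1 alone was lower in every NR-treated aged than in every aged library. Over all genes, 12.4%, 4.74% and 8.6% did not overlap, higher or lower, in these 3 comparisons in turn. Of 39 markers of mature blood cells, 36 were in the table and 13 of these were at 0 in at least 1 library. Their summed level was 10970 to 14430 CPM in aged and 2926 to 4390 CPM in NR-treated aged, and 3222 to 6546 CPM in 4 young libraries, while young mouse 3 reached 14924 CPM. Markers of multipotent progenitors summed to 275 to 391 CPM in young, 164 to 176 CPM in aged and 198 to 232 CPM in NR-treated aged. Within this sum Cd48, against which the cells were sorted, was lower in NR-treated aged than in aged. Dntt was lower too, but near the floor, at 0.402 to 3.89 CPM in aged and 0 in NR-treated aged. Cd27 went the other way, at 66.5 to 88.7 CPM in aged and 105.9 to 126.0 CPM in NR-treated aged. Flt3 and Cd34 overlapped between these groups. Cd48 was at 3.51 to 35.0 CPM in young, 7.78 to 40.2 CPM in aged and 1.19 to 5.45 CPM in NR-treated aged. Immediate early genes of the kind raised by cell dissociation summed to 3406 to 6953 CPM in young, 4203 to 8122 CPM in aged and 2008 to 4362 CPM in NR-treated aged. Young mice 1 and 5 held 104 and 108 CPM of 4 Y-linked transcripts, against at most 3.16 CPM in the other 13 libraries, although all mice were described as female. In sorted bulk samples, fewer cells of a type and less RNA per cell cannot be told apart.

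By the main test the matrix proteases differed with age in opposite directions. Clpx and Clpp were higher and Lonp1 was lower in aged than in young HSC, and no chaperone passed the test. A gene was called where the adjusted p of edgeR's quasi-likelihood test, corrected over all 16154 genes, was under 0.05. By this rule 3 of the 10 genes were called, 2 higher and 1 lower, beside 19.3% of all genes, 9.68% higher and 9.63% lower. Lonp1 passed narrowly, at an adjusted p of 0.0498, and lost its call in 12 of 15 fits that left out 1 library. All 3 calls were lost without young mice 1 and 5 and after thinning counts to the smallest library total. With NR, Clpx alone was called, lower in NR-treated aged than in aged HSC. That is 1 of 10 beside 8.07% of all genes, of which 3.88% were higher and 4.18% lower. Against young, none of the 10 was called in NR-treated aged HSC by this test, beside 4.47% of all genes, 2.56% higher and 1.91% lower. At an unadjusted p under 0.05 the counts were 3, 4 and 1 of 10 in the 3 comparisons in turn, beside 33.2%, 25.1% and 18% of all genes. In NR-treated aged against young the likelihood ratio test, DESeq2 and limma voom also called none.

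The groups overlapped for all 10 genes in all 3 comparisons. Over all genes, the 5 libraries of one group lay wholly above or below those of the other for 12.4% in aged against young, for 8.6% in NR-treated aged against aged and for 4.74% in NR-treated aged against young. The median log2 fold change of the 10 genes was 0.12 in aged against young, beside -0.03 over all genes. It was -0.13 in NR-treated aged against aged, beside 0.02 over all genes, and 0.02 in NR-treated aged against young, beside -0.0046. Scaling by library totals in place of TMM, edgeR's trimmed mean of log ratios, moved the median of all genes to -0.16 in the age comparison and to 0.16 in the NR comparison. With it, 1020 of 3505 called genes were higher in aged than in young, against 1564 of 3120 with TMM, and 1246 of 1590 were higher with NR, against 627 of 1303. Fold changes of the 10 genes depend on this choice where they are near those shifts.

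**Figure D1:**
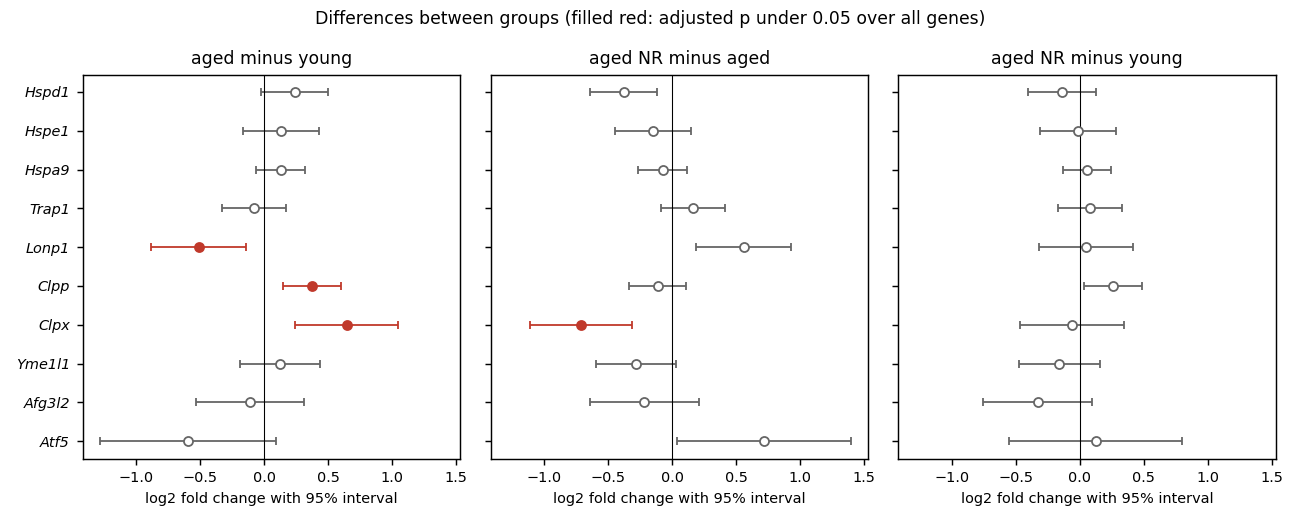
Log2 fold changes (horizontal axis) of the 10 genes (vertical axis) in the 3 comparisons, as points with 95% intervals from the fit of all 15 libraries; filled red points have an adjusted p under 0.05 over all genes. Lonp1, Clpp and Clpx were called in aged against young, Clpx alone in NR-treated aged against aged, and no gene in NR-treated aged against young.

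Lonp1 encodes the ATP-dependent Lon protease of the mitochondrial matrix, which degrades oxidised and misfolded proteins. In young mice 1 to 5, Lonp1 was at 38.6, 49.8, 40.9, 45.7 and 41.0 CPM after TMM scaling. In aged mice 1 to 5 it was at 31.1, 14.3, 29.0, 40.5 and 29.7 CPM, and in NR-treated aged mice 1 to 5 at 57.3, 34.3, 41.6, 44.9 and 44.9 CPM. Of the 5 aged libraries, 4 lay below every young library, and aged mouse 4 lay inside the young range. The mean was 43.2 ± 4.52 CPM in young, 28.9 ± 9.42 CPM in aged and 44.6 ± 8.34 CPM in NR-treated aged (SD, n = 5 each).

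This made Lonp1 1.42-fold lower in aged than in young HSC (log2 fold change -0.51, SE 0.18, 95% interval -0.88 to -0.14, adjusted p = 0.0498). With NR it was 1.47-fold higher than in aged HSC (log2 fold change 0.56, SE 0.18, 95% interval 0.19 to 0.93), which missed the threshold at an adjusted p of 0.0555. NR-treated aged and young HSC differed by 0.05 on the log2 scale (95% interval -0.32 to 0.42, adjusted p = 0.924). Aged mouse 2 gave only 11 Lonp1 counts, whose exact Poisson interval runs from 7.12 to 25.5 CPM. Without that library the log2 fold changes were -0.41 in the age comparison and 0.46 in the NR comparison. The age call was also lost without any one of the young libraries or of aged mice 1, 2, 3 and 5 or of NR-treated mice 3, 4 and 5, with an adjusted p of at most 0.0994, and in the fit of only the young and aged libraries (adjusted p = 0.0621). The NR difference was called by the likelihood ratio test (adjusted p = 0.0293), DESeq2 (0.0182), limma voom (0.0415), DESeq2 size factors (0.0459), a minimum of 10 counts (0.0229) and library totals (log2 fold change 0.70, adjusted p = 0.0158). With library totals Lonp1 took the place of Clpx as the 1 gene called with NR.

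Clpp encodes the proteolytic core and Clpx the ATP-dependent unfoldase of the ClpXP protease, the other main protease of the matrix. Clpx was at 47.4, 57.1, 39.5, 54.4 and 40.7 CPM in young mice 1 to 5. It was at 64.2, 53.2, 65.7, 58.8 and 126.3 CPM in aged mice 1 to 5, and at 41.5, 46.5, 41.2, 45.3 and 53.6 CPM in NR-treated aged mice 1 to 5. Of the 5 aged libraries, 4 lay above every young library, and 4 of 5 NR-treated libraries lay below every aged library, with aged mouse 5 far above the rest. The group means were 47.8 ± 7.88 CPM in young, 73.6 ± 29.9 CPM in aged and 45.6 ± 5.03 CPM in NR-treated aged (SD, n = 5 each).

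For Clpx this was a 1.56-fold higher level in aged than in young HSC (log2 fold change 0.64, SE 0.19, 95% interval 0.24 to 1.04, adjusted p = 0.0242). It fell by 0.71 on the log2 scale from aged to NR-treated aged HSC (SE 0.19, 95% interval -1.11 to -0.31, adjusted p = 0.0298), a 1.63-fold lower level. NR-treated aged and young HSC differed by -0.06 (95% interval -0.47 to 0.34, adjusted p = 0.906). Both differences rest in part on aged mouse 5, without which they were 0.36 (adjusted p = 0.0920) and -0.42 (adjusted p = 0.0901). The age call was also lost without young mouse 5 (log2 fold change 0.59, adjusted p = 0.0619). The NR call was also lost without aged mouse 3 (log2 fold change -0.75, adjusted p = 0.0533) and without any one of NR-treated mice 1 to 4 (log2 fold changes -0.72 to -0.66, adjusted p up to 0.0745). With library totals the adjusted p was 0.0517 for age and 0.0551 for NR.

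Clpp was at 114.7, 125.0, 105.1, 93.2 and 100.1 CPM in young mice 1 to 5. It was at 128.6, 150.5, 150.0, 118.8 and 150.6 CPM in aged mice 1 to 5, and at 124.0, 126.1, 126.4, 148.3 and 119.8 CPM in NR-treated aged mice 1 to 5. In 4 of the 5 aged libraries Clpp lay above every young library, and the NR-treated libraries lay inside the aged range. Aged HSC held 1.29-fold more Clpp than young HSC, with means of 139.7 ± 15.03 and 107.6 ± 12.5 CPM (SD, n = 5 each) and a log2 fold change of 0.37 (SE 0.11, 95% interval 0.15 to 0.60, adjusted p = 0.0217). The call was lost without young mouse 4 or 5 or aged mouse 3 or 5, at log2 fold changes of 0.33, 0.35, 0.34 and 0.34 and adjusted p-values of 0.0618, 0.0559, 0.0648 and 0.0584, and with library totals (0.25, adjusted p = 0.104). NR-treated aged HSC, at 128.9 ± 11.1 CPM (SD, n = 5), differed from aged HSC by -0.11 (95% interval -0.34 to 0.11, adjusted p = 0.547). They differed from young HSC by 0.26 (95% interval 0.03 to 0.49, adjusted p = 0.203).

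**Figure D2:**
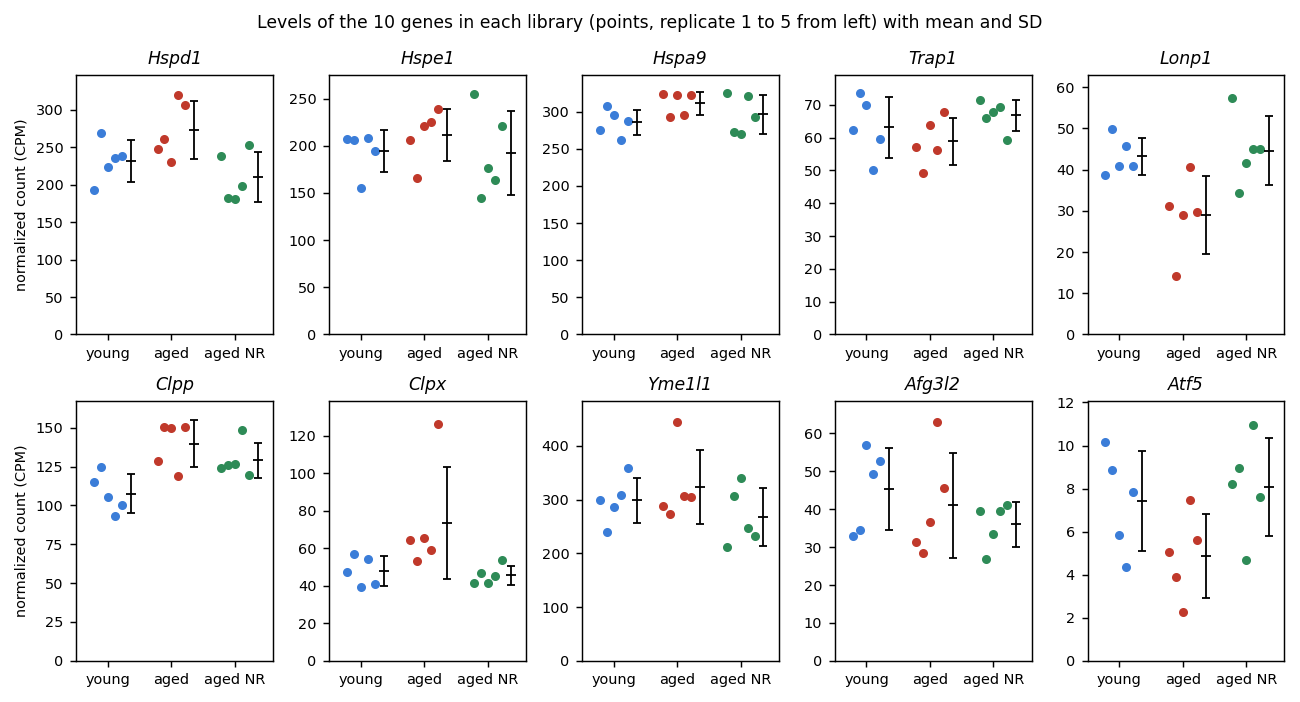
TMM-scaled CPM (vertical axis, starting at 0) of each gene in the young, aged and NR-treated aged (aged NR) libraries, points in the order of replicates 1 to 5, with the mean and SD (n = 5) beside them. Lonp1 was lowest in aged mouse 2 at 14.3 CPM, Clpx highest in aged mouse 5 at 126.3 CPM, and the groups overlap in every panel.

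In the GENCODE annotation of GRCm38, Lonp1 lies at chr17:56614297-56626887 on the minus strand and Clpp at chr17:56990305-56996188 on the plus strand of the same chromosome. Clpx lies at chr9:65294260-65330658 on the plus strand. All 3 are protein-coding, and their counts come from exonic reads. The promoters of the called genes are shown because they differ in the motifs they hold. The windows, from RefSeq on GRCm38.p6, run from 250 bases before to 50 bases after an annotated start. They are chr17:56626854-56627153 on the minus strand for Lonp1, chr17:56990014-56990313 on the plus strand for Clpp and chr9:65294010-65294309 on the plus strand for Clpx. Capitals mark matches, on either strand, to CCGGAAG (the core bound by ETS factors), GCATGCGC (the core bound by NRF1, a regulator of nuclear genes for mitochondrial proteins), GAANNTTC (2 units of a heat shock element) or TGATGCAA (the C/EBP-ATF element of amino acid stress genes).
Lonp1: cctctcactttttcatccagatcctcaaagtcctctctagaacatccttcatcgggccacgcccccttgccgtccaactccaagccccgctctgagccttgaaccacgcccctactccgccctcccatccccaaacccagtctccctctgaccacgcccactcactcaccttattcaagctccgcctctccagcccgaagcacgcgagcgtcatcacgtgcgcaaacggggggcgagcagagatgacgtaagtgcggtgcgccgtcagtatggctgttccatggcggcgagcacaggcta
Clpp: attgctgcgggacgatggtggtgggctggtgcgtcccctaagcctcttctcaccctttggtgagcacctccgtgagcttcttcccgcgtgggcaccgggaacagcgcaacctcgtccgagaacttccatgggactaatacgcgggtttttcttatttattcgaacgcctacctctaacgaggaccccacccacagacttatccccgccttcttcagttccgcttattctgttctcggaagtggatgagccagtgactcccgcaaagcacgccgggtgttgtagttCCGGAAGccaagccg
Clpx: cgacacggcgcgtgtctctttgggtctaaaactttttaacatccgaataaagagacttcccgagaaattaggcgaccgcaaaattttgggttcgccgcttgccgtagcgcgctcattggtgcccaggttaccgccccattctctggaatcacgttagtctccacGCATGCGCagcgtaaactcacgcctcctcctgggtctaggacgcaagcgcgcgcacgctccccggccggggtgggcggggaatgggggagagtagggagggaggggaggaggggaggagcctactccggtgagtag
Clpp held the ETS core at base 286 of its window and Clpx the NRF1 core at base 165, and Lonp1 held none of the 4. Over 32544 promoter windows of this length, 8.91% held the ETS core, 2.73% the NRF1 core, 7.89% the heat shock pair and 0.867% the C/EBP-ATF element. Of the 10 genes, 8 had windows that were searched, 10 windows in all, since those on one chromosome were not used here. The C/EBP-ATF element was in none of the 8 genes and the ETS core in 4 of them, Clpp, Hspd1, Hspe1 and Yme1l1. GGGCGG, the core bound by SP factors, was in 7 of the 8 genes and 9 of the 10 windows, beside 35.9% of all windows. CCAAT was in 4 genes and 4 windows, beside 37.4%. A window of Hspd1 and that of Hspe1 share 285 bases. Their ETS matches, and some of their SP matches, are therefore the same bases counted for both genes. A match is a run of letters and not a measured binding site.

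Hspd1 encodes the chaperonin Hsp60 and Hspe1 its lid Hsp10, and both genes are read outward from one promoter. Hspd1 was at 192.3, 269.3, 223.6, 236.2 and 237.6 CPM in young mice 1 to 5. It was at 247.7, 260.8, 230.1, 320.2 and 306.9 CPM in aged mice 1 to 5, and at 237.6, 181.6, 181.2, 198.0 and 252.4 CPM in NR-treated aged mice 1 to 5. In all, 3 of the 5 NR-treated libraries lay below every aged library, and 2 aged libraries lay above every young one. The log2 fold change of Hspd1 was 0.24 in aged against young (SE 0.13, 95% interval -0.02 to 0.50, adjusted p = 0.195). In NR-treated aged against aged it was -0.38 (SE 0.13, 95% interval -0.64 to -0.12, adjusted p = 0.0675), with group means of 210.1 ± 32.9 and 273.1 ± 38.8 CPM (SD, n = 5 each). DESeq2 called that difference at -0.37 (adjusted p = 0.0389), as did the quasi-likelihood test without NR-treated mouse 5 (-0.45, adjusted p = 0.0409).

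Hspe1 ranged from 155.4 to 208.2 CPM in young, from 166.1 to 238.8 CPM in aged and from 144.9 to 254.5 CPM in NR-treated aged HSC. Its log2 fold change was 0.13 with age (95% interval -0.16 to 0.43, adjusted p = 0.560) and -0.15 with NR (95% interval -0.44 to 0.15, adjusted p = 0.547). The NR-treated group was the most spread for Hspe1, with a coefficient of variation of 23.2%, against 11.5% in young and 13.2% in aged. The ratio of Hspd1 to Hspe1 counts in a library was 1.21 ± 0.192 in young, 1.30 ± 0.202 in aged and 1.11 ± 0.132 in NR-treated aged (SD, n = 5 each), and the 3 ranges overlapped. Exons of both genes overlap by 112 bases on opposite strands, and the strand setting of the counting is not given in the sources used here.

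The shared promoter is printed from both sides because the same bases carry the heat shock match for both genes. The windows are chr1:55087883-55088182 on the minus strand for Hspd1 and chr1:55087898-55088197 on the plus strand for Hspe1, from RefSeq on GRCm38.p6. They share 285 bases, and the capitals are as above.
Hspd1: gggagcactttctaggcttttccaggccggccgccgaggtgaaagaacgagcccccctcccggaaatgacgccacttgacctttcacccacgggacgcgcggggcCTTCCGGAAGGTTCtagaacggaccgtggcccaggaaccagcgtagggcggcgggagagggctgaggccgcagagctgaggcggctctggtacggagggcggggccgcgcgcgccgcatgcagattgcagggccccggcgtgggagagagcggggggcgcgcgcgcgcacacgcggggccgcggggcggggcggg
Hspe1: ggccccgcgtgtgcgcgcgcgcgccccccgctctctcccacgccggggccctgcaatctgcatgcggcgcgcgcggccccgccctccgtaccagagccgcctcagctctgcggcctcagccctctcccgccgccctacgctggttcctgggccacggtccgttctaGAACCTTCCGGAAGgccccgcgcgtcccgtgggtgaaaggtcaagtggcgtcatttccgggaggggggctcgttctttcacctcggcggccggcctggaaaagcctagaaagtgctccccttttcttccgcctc
The heat shock pair, at base 112 of the Hspd1 window and base 167 of the Hspe1 window, begins at position 55088064 of chromosome 1 in both. It overlaps the pair of ETS matches beside it, which run into each other. A second annotated start of Hspd1 shares 4 bases of its window with that of Hspe1 and holds none of the 4 motifs in capitals.

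Hspa9 encodes mortalin, the Hsp70 of the matrix that also pulls imported chains inward. Its level ranged from 262.3 to 307.0 CPM in young, from 293.2 to 323.8 CPM in aged and from 269.9 to 324.9 CPM in NR-treated aged HSC. It had the smallest spread of the 10 genes, with a coefficient of variation of 7.27% over the 15 libraries. The log2 fold change of Hspa9 was 0.13 with age (95% interval -0.06 to 0.32, adjusted p = 0.343) and -0.07 with NR (95% interval -0.26 to 0.11, adjusted p = 0.645). With library totals the NR value changed sign, to 0.06.

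Trap1 encodes the mitochondrial member of the Hsp90 family. It ranged from 50.1 to 73.5 CPM in young, from 49.3 to 67.7 CPM in aged and from 59.4 to 71.5 CPM in NR-treated aged HSC. The log2 fold change was -0.08 with age (95% interval -0.33 to 0.17, adjusted p = 0.687) and 0.16 with NR (95% interval -0.09 to 0.41, adjusted p = 0.412). For both chaperones the intervals exclude a change of the size measured for Clpx in either comparison. The last exon bases of Trap1 overlap those of Dnase1 by 54 bases on the opposite strand.

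Yme1l1 and Afg3l2 encode ATP-dependent proteases of the inner membrane, the first with its active side towards the intermembrane space and the second, a subunit of the m-AAA protease, towards the matrix. Yme1l1 was at 299.3, 239.5, 287.0, 308.0 and 358.2 CPM in young mice 1 to 5. In aged mice 1 to 5 it was at 288.9, 273.7, 444.6, 306.1 and 304.3 CPM, and in NR-treated aged mice 1 to 5 at 211.3, 307.4, 339.5, 246.9 and 232.3 CPM. One aged library, mouse 3, stood above all others, and the other 4 lay inside the young range. The log2 fold change of Yme1l1 was 0.12 with age (95% interval -0.19 to 0.43, adjusted p = 0.620) and -0.28 with NR (95% interval -0.59 to 0.03, adjusted p = 0.249). Without aged mouse 3 these values were -0.027 and -0.13.

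Afg3l2 ranged from 33.0 to 57.03 CPM in young, from 28.5 to 62.9 CPM in aged and from 26.8 to 41.1 CPM in NR-treated aged HSC. Its log2 fold change was -0.11 with age (95% interval -0.54 to 0.31, adjusted p = 0.745), -0.22 with NR (95% interval -0.64 to 0.21, adjusted p = 0.535) and -0.33 in NR-treated aged against young (95% interval -0.76 to 0.10, adjusted p = 0.433). The age value moved between -0.32 without aged mouse 4 and -0.017 without aged mouse 1. These intervals leave room for differences as large as those called for Clpp and Lonp1.

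Atf5 encodes a bZIP transcription factor thought to be imported into healthy mitochondria and to act under import stress in the nucleus. It was the least counted of the 10 genes, with 3 to 42 counts in a library. In young mice 1 to 5 it was at 10.2, 8.84, 5.84, 4.35 and 7.82 CPM. In aged mice 1 to 5 it was at 5.06, 3.89, 2.28, 7.47 and 5.62 CPM, and in NR-treated aged mice 1 to 5 at 8.19, 8.94, 4.67, 10.96 and 7.62 CPM. Among the 5 NR-treated libraries, 4 lay above every aged library, whereas young and aged overlapped more widely. The log2 fold change was -0.60 with age (SE 0.33, 95% interval -1.28 to 0.09, adjusted p = 0.216) and 0.72 with NR (SE 0.32, 95% interval 0.04 to 1.40, adjusted p = 0.172). NR-treated aged and young HSC differed by 0.12 (95% interval -0.55 to 0.79, adjusted p = 0.889). In aged mouse 2 the value rests on 3 counts, whose exact Poisson interval runs from 0.803 to 11.4 CPM. Exons of Atf5 overlap those of Nup62 by 82 bases on the opposite strand.

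**Figure D3:**
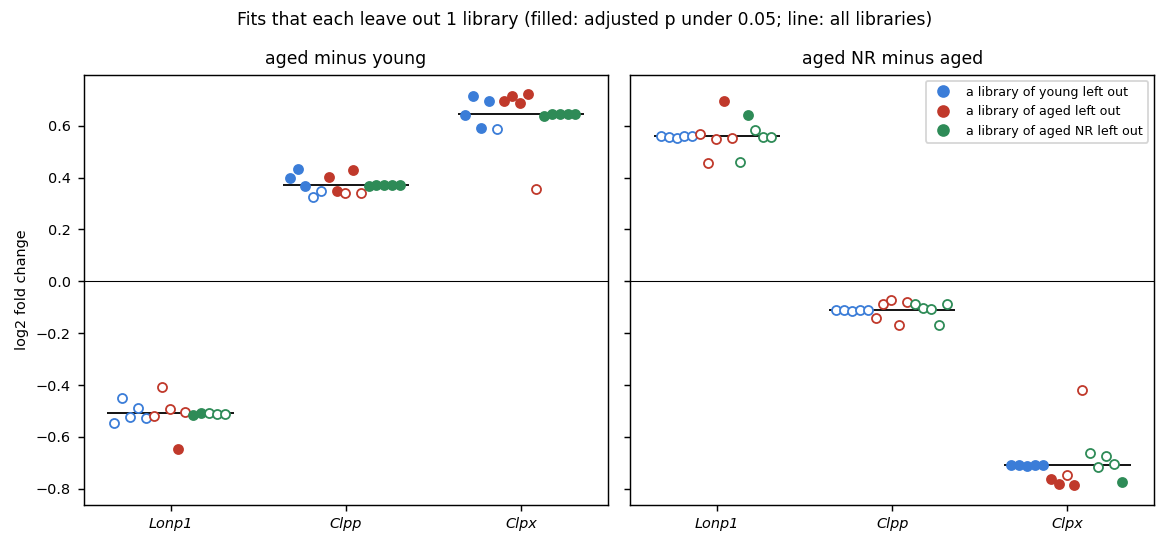
Log2 fold changes (vertical axis) of Lonp1, Clpp and Clpx in fits that each leave out 1 of the 15 libraries (points, coloured by the group of the library left out), beside the value with all libraries (line); filled points keep an adjusted p under 0.05. The Clpx values stand apart where aged mouse 5 is left out, at 0.36 and -0.42, and no value crosses 0.

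The summed mature blood cell markers were high in the aged group, as given above. Clpx and Clpp were higher and Lonp1 lower in that group than in young HSC. In NR-treated aged HSC the markers were at 2926 to 4390 CPM, and Clpx and Lonp1 had means near the young ones. Clpp stayed inside the aged range there, with a mean of 128.9 against 139.7 CPM in aged. Young mouse 3, at 14924 CPM of these markers, had 39.5 CPM of Clpx, the lowest of the 15 libraries. It had 40.9 CPM of Lonp1 and 105.1 CPM of Clpp, both inside the range of the other young mice. Its marker sum was of another mix than that of the aged libraries. Neutrophil and monocyte markers made up 9005 CPM of it, against 2502 to 3814 CPM in aged. Erythroid markers made up 4879 against 5187 to 8824 CPM, and B and plasma cell markers 856 against 592 to 4232 CPM. Without young mouse 3 the log2 fold changes in the age comparison were 0.59 for Clpx (adjusted p = 0.0497), 0.37 for Clpp (adjusted p = 0.0352) and -0.52 for Lonp1 (adjusted p = 0.0607). Aged mouse 5, where Clpx was highest, had 10970 CPM of the markers, the lowest aged value. Any part of these markers in the differences was not tested beyond these values. Without young mice 1 and 5, the libraries with Y-linked transcripts, the age values were 0.57 for Clpx (adjusted p = 0.124), 0.37 for Clpp (adjusted p = 0.0797) and -0.59 for Lonp1 (adjusted p = 0.0804), and none of the 10 genes was called, while the share of all genes called fell from 19.3% to 11.5%.

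**Figure D4:**
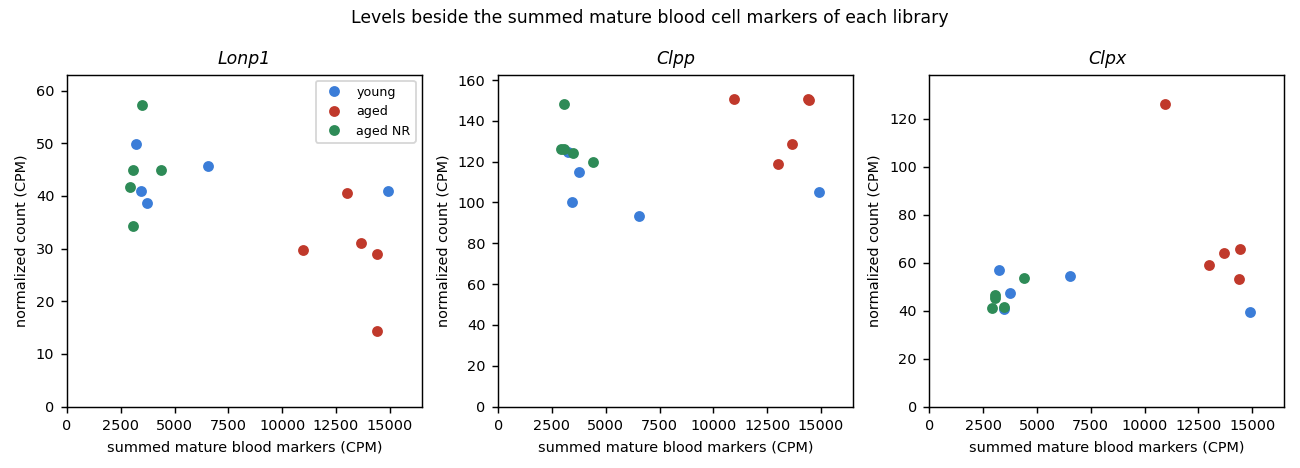
TMM-scaled CPM of Lonp1, Clpp and Clpx (vertical axes, starting at 0) against the summed CPM of 36 mature blood cell markers (horizontal axis) in each of the 15 libraries, coloured by group. The horizontal axis is scaled to raw library totals, without TMM. The 5 aged libraries lie at 10970 CPM or more on the horizontal axis together with young mouse 3 at 14924 CPM, which sits at 39.5 CPM of Clpx.

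Pairs of genes were compared within libraries, where depth cancels. The ratio of Clpx to Clpp counts was 0.447 ± 0.0815 in young, 0.525 ± 0.185 in aged and 0.357 ± 0.0558 in NR-treated aged HSC (SD, n = 5 each). Its highest value, 0.839, was in aged mouse 5, and the other aged mice lay between 0.353 and 0.499. The ratio of Lonp1 to Clpp counts, which sets both matrix proteases side by side, was 0.405 ± 0.0555 in young, 0.214 ± 0.0893 in aged and 0.348 ± 0.0742 in NR-treated aged HSC. This ratio ran from 0.336 to 0.490 in young, from 0.0948 to 0.341 in aged and from 0.272 to 0.462 in NR-treated aged. Young and aged touched only between aged mouse 4 and young mouse 1. Lonp1 and Clpp were called in opposite directions in these same libraries, so this distance follows from those calls and adds nothing to them. The lowest value, in aged mouse 2, rests on 11 Lonp1 counts. Ratios of counts describe balance within a library and not molar amounts, since genes differ in how well their transcripts are primed.

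Within groups, the 10 genes did not vary as one block. Over the 45 pairs, Pearson's r of deviations from the group means of log2 CPM had a median of 0.167, ran from -0.617 to 0.687 and was above 0 for 32 pairs. These values are a description over 15 libraries that share depth and base composition by library. Lonp1 varied most closely with Hspe1 (r = 0.687), and also with Afg3l2 (0.588) and Hspd1 (0.479). Aged mouse 2, with 11 Lonp1 counts, was the lowest aged library for Lonp1, Hspe1 and Afg3l2, though not for Hspd1. These r values were not computed without it. Hspd1 and Hspe1 had an r of 0.551 and Hspa9 and Trap1 of 0.656. The partners Clpp and Clpx had an r of only 0.248, and Lonp1 and Clpp of -0.325. Yme1l1 ran against most of the others, with r of -0.617 to Hspd1, -0.516 to Atf5 and -0.426 to Hspa9.

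**Figure D5:**
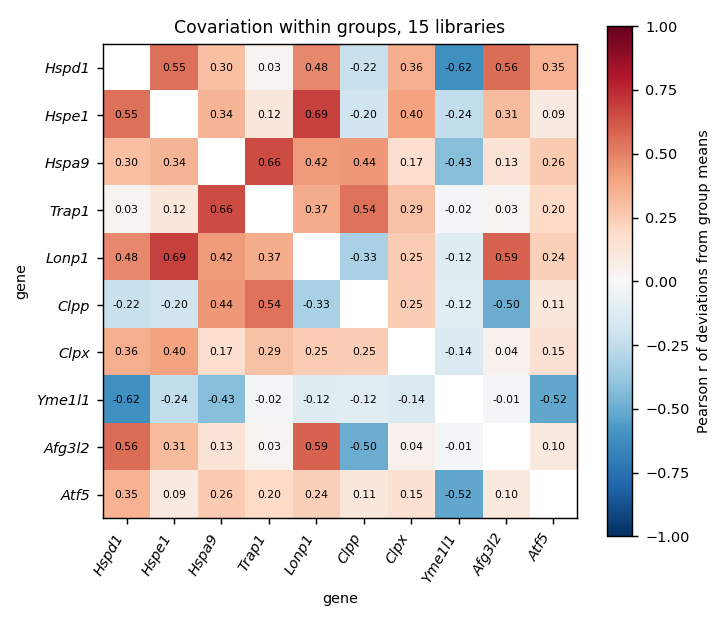
Pearson's r of deviations from group means of log2 CPM between each pair of the 10 genes (both axes) over 15 libraries, as colour and number. Values run from -0.62 for Hspd1 with Yme1l1 to 0.69 for Hspe1 with Lonp1.

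Among 7091 other genes averaging 20 CPM or more, the closest to Lonp1 over the 15 libraries were Pus1 (r = 0.905), Ahcyl1 (0.892) and Mta2 (0.891). Within groups these values were 0.837, 0.780 and 0.793. Mean levels of Mta2, which encodes a subunit of a chromatin remodelling complex, were 104.3 ± 17.98 CPM in young, 67.1 ± 17.3 CPM in aged and 97.7 ± 9.34 CPM in NR-treated aged HSC (SD, n = 5 each). Closest to Clpp were Fxyd5 (r = 0.954, within groups 0.898), Tfpi (0.915, within groups 0.798) and Eef2kmt (0.913, within groups 0.784). Closest to Clpx were Rps14 (0.901, within groups 0.821), St13 (0.851, within groups 0.704) and Atp6v1d (0.841, within groups 0.761). Rps14, a protein of the small ribosomal subunit, averaged 5931 CPM in young, 7688 CPM in aged and 5940 CPM in NR-treated aged HSC. These 9 genes were picked for their likeness, so the values are a description.

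Around the 10 genes, 8 lists of 127 genes gave the rest of the pathway, and 123 were in the table. With age, 19 of the 123 were higher and 3 lower, 17.9% in all beside 19.3% of all genes. The median log2 fold change of the lists was 0.14. With NR, 1 was higher and 9 were lower, 8.13% beside 8.07%, with a median of -0.16. In NR-treated aged against young, 2 were higher and none lower, 1.63% beside 4.47%. By direction, 15.4% were higher with age beside 9.68% of all genes and 2.44% lower beside 9.63%, and with NR 7.32% were lower beside 4.18% and 0.813% higher beside 3.88%. The medians over all genes were -0.03 with age and 0.02 with NR. List by list, with age 9.09% of chaperone helpers, 11.8% of other proteases, 14.3% of import genes and 10% of antioxidant proteins were called. The shares were 10.5% of regulators, 15.4% of mass genes, 30% of ATF4 targets and 41.7% of cytosolic heat shock proteins. With NR they were 9.52% of import genes, 20% of antioxidant proteins, 21.1% of regulators, 5% of ATF4 targets and 8.33% of heat shock proteins. The lists were chosen with earlier results of these data known.

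Among helpers of the chaperones, 1 of 11 genes was called with age. It was Dnajc15, a J protein of the inner membrane that stimulates matrix Hsp70, at 118.7 CPM in aged and 79.7 CPM in young (log2 fold change 0.57, SE 0.13, adjusted p = 0.0041), and no gene of this list was called with NR. Of 17 other mitochondrial proteases and scaffolds, 2 were higher with age. Immp2l, of the inner membrane peptidase, was at 40.2 against 26.7 CPM (adjusted p = 0.0470) and Parl, the rhomboid protease of the inner membrane, at 105.2 against 84.6 CPM (adjusted p = 0.0407). With the likelihood ratio test 1 of this list was higher and with library totals none was. None of these 17 was called with NR.

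Of 21 genes of protein import, 3 were higher with age and none lower. Timm10b was at 121.9 CPM in aged against 82.0 CPM in young (log2 fold change 0.57, SE 0.11, adjusted p = 0.0019), and Timm21 at 42.1 against 28.0 CPM (0.61, SE 0.16, adjusted p = 0.0113). Gfer, an oxidase of the intermembrane space import pathway, was at 63.1 against 46.9 CPM (0.43, SE 0.13, adjusted p = 0.0231). With NR, 2 were lower, Timm10b at 93.6 CPM (-0.37, SE 0.11, adjusted p = 0.0472) and Timm21 at 27.8 CPM (-0.61, SE 0.16, adjusted p = 0.0237). Both calls were absent with library totals. Of 10 mitochondrial antioxidant proteins, Prdx5 was higher with age, at 331.8 against 233.7 CPM (adjusted p = 0.0066), and lower with NR, at 239.1 CPM (adjusted p = 0.0230). Gsr, glutathione reductase, was also lower with NR, at 39.1 against 73.5 CPM (log2 fold change -0.87, adjusted p = 0.0295). The NR calls of Prdx5 and Gsr were absent with library totals.

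Of 19 regulators, 1 was higher and 1 lower with age, and 1 higher and 3 lower with NR. Ppp1r15b, the constitutive partner of the phosphatase that reverses the integrated stress response, was lower in aged than in young HSC, at 38.8 against 57.7 CPM (log2 fold change -0.55, SE 0.12, adjusted p = 0.0038). Cebpd was higher, at 7.26 against 2.95 CPM (adjusted p = 0.0280). With NR, Ppp1r15a, the inducible partner, was at 264.1 against 464.6 CPM in aged (-0.82, SE 0.18, adjusted p = 0.0112), Cebpb at 10.8 against 21.2 CPM (adjusted p = 0.0211) and Esr1 at 54.0 against 90.6 CPM (adjusted p = 0.0373). Sirt3, the main mitochondrial deacetylase that uses NAD, was higher with NR, at 53.7 against 35.9 CPM (0.57, SE 0.16, adjusted p = 0.0340). Its age value was -0.30 (adjusted p = 0.2). Sirt7, a nuclear deacetylase linked to this response in HSC, was at -0.19 with age (adjusted p = 0.306) and 0.08 with NR (adjusted p = 0.728).

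Atf4, the central factor of the integrated stress response, was at -0.11 with age (adjusted p = 0.545), -0.27 with NR (adjusted p = 0.156) and -0.38 in NR-treated aged against young (SE 0.12, adjusted p = 0.0708). Ddit3 (CHOP) was at 0.16 with age (adjusted p = 0.647) and 0.08 with NR (adjusted p = 0.861). Of 20 ATF4 target genes, 5 were higher and 1 lower with age, 1 of the 5 being Atf3, a call lost without aged mouse 3. Nupr1, a small chromatin protein induced by stress, was at 677.1 CPM in aged and 54.3 CPM in young (log2 fold change 3.64, SE 0.17), and Trib3 at 36.7 against 15.3 CPM (1.27, SE 0.20, adjusted p = 0.0002). Asns, asparagine synthetase, was at 64.7 against 39.3 CPM (0.73, SE 0.13, adjusted p = 0.0010), and Slc7a5, an amino acid transporter, at 8.38 against 16.9 CPM (-0.92, SE 0.25, adjusted p = 0.0142). With library totals 4 genes of this list were lower with age.

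Nupr1 and Vldlr were the only 2 genes of the lists called in NR-treated aged against young, at 554.8 and 48.6 CPM in NR-treated aged against 54.3 and 20.3 CPM in young. With NR, 1 of the 20 ATF4 targets was called. It was Atf3, lower at 2.95 CPM against 63.6 CPM in aged (adjusted p = 0.0188), a difference that rests on aged mouse 3 at 286.1 CPM. The other aged mice were between 2.59 and 16.7 CPM, and without aged mouse 3 neither the NR value (log2 fold change -1.52, adjusted p = 0.228) nor the age value of Atf3 (0.53, adjusted p = 0.655) was called. Aged mouse 3 also had the highest summed immediate early genes, 8122 CPM. The part of these genes in the levels of Atf3, Ppp1r15a and the heat shock genes was not tested.

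Of 12 cytosolic heat shock proteins, 4 were higher and 1 lower with age, and 1 was lower with NR. Hspa1a was at 1.41, 0.30, 0, 0.37 and 1.09 CPM in NR-treated aged mice 1 to 5 and at 2.46, 2.59, 8.71, 11.2 and 6.03 CPM in aged mice 1 to 5, with no overlap (log2 fold change -3.22, SE 0.64, adjusted p = 0.0075). Its age value was 2.48 (SE 0.60, adjusted p = 0.0075). In young mice 1 to 5 Hspa1a was at 0.35, 3.62, 0.45, 0.73 and 0.81 CPM. Young mouse 2 lay above aged mice 1 and 2, so young and aged overlapped. The Hspa1a levels rest on few counts, 5, 1, 0, 1 and 4 in NR-treated aged mice 1 to 5 and 2 in aged mouse 2. Young mice 1 to 5 had 1, 9, 1, 2 and 3 counts. Hspa1b was at 8.12 CPM in aged against 0.988 CPM in young (adjusted p = 0.0054), and reads of this near-identical pair may be split unevenly in counting. Hspa8, the constitutive cytosolic Hsp70, was at 1005 against 744.6 CPM (0.43, SE 0.12, adjusted p = 0.0142), and Hspb1 at 2.79 against 0.691 CPM (adjusted p = 0.0201). Of 13 genes taken as a measure of mitochondrial mass, 2 were higher with age, Cox4i1 at 1275 against 996.0 CPM (adjusted p = 0.0309) and Slc25a4 at 341.3 against 278.9 CPM (adjusted p = 0.0408). None of the 13 was called with NR, and none of the 2 was called with library totals.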

How the data were processed

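RNA of sorted HSC from individual mice was made into 3-prime libraries with a unique molecular identifier of 10 bases. Per the study's methods and the submitters' processing notes, the authors aligned reads to GRCm38 with STAR 2.4.2a, removed duplicated identifiers, counted exonic reads with featureCounts and kept genes with more than 5 reads and 2 CPM in at least 2 samples. The deposited table holds these raw counts for 16154 genes. All 15 libraries were fitted together with edgeR 4.0.16 (R 4.3.3; TMM, group only, quasi-likelihood F test, adjusted over all genes), and the script was tested on simulated data. The study used likelihood ratio tests, an alternative here beside DESeq2 1.42.0, limma 3.58.1 voom, other scalings, a minimum of 10 counts, thinning to the smallest total, only the groups compared, a replicate block and leaving out libraries. The members and lists were chosen with earlier results of these data known. Named list genes are those called, at most 4 per list and comparison by p, with Atf4, Ddit3, Sirt3, Sirt7 and Hspa1a, and the 3 genes closest to each called member by Pearson's r of log2 CPM (prior count 2). Dele1 was matched by its older symbol. Poisson intervals are exact at 95% and cover counting error only. Totals of 764119 to 13318989 counts set the precision.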

Additional observations from a re-analysis of the deposited data

Results flagged for a closer look

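Of 30 groups of 5 libraries (10 genes in 3 groups), 4 held a library far from the rest by Dixon's test, and chance flags about 1 in 20 groups. Clpx was at 126.3 CPM in aged mouse 5, where the other aged mice were between 53.2 and 65.7 CPM. Yme1l1 was at 444.6 CPM in aged mouse 3, where the other aged mice were between 273.7 and 306.1 CPM. Clpp was at 148.3 CPM in NR-treated mouse 4, where the others were between 119.8 and 126.4 CPM. Hspe1 was at 155.4 CPM in young mouse 3, where the others were between 194.7 and 208.2 CPM.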

How the results depend on the processing

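Of 747 fold changes of the 10 genes under the alternatives, 686 kept their direction and side of the threshold, 35 lost a call, 10 gained one and 16 changed sign. The count of genes called in aged against young was 3, and 2 with only these groups fitted, 1 with library totals, 0 after thinning to the smallest total and 0 without young mice 1 and 5. Leaving out 1 library at a time it ran from 0 to 3. In NR-treated aged against aged it was 1, and 2 with the likelihood ratio test, 3 with DESeq2, 2 with limma voom, 2 with DESeq2 size factors, 2 with at least 10 counts in every library and 0 after thinning. Library totals also gave 1, but Lonp1 in place of Clpx. Leaving out 1 library it ran from 0 to 2. In NR-treated aged against young it stayed 0 in every fit. Changes of sign were in values that were never called. With library totals these were Yme1l1 with age (-0.012), Hspa9 with NR (0.059) and Clpp with NR (0.026). Leaving out 1 library, Yme1l1 with age ran from -0.027 to 0.20. In NR-treated aged against young, Hspe1 then ran from -0.13 to 0.071, Lonp1 from -0.054 to 0.13, Clpx from -0.13 to 0.0059 and Atf5 from -0.019 to 0.26. Without young mice 1 and 5 Hspe1 was at 0.018 and Lonp1 at -0.027. The cause was not tested, save that thinned or left-out fits hold fewer counts or libraries.

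Over all genes, thinning called 1530, 468 and 419 genes in the 3 comparisons against 3120, 1303 and 722, and a minimum of 10 counts, which left 8444 genes, called 783 in the NR comparison. There the likelihood ratio test, DESeq2 and limma voom called 1734, 1799 and 1757 genes (10.7%, 11.1% and 10.9%, against 8.07%), and without young mice 1 and 5 the age comparison had 1862. Leaving out aged mouse 3 gave 1953 and 422 in the first 2. Of 144 list counts under other tests and scalings 128 stayed within 1.5 times, and of 60 group means 59 moved by under 1 SD. Replicate numbers name different mice, since each library came from an individual mouse. Same-numbered libraries had a mean correlation of deviations of -0.000176 (from -0.238 to 0.146 over 15 pairs), and 3 of 15 libraries correlated best with their own number. With a replicate block 3, 1 and 0 of the 10 genes were called, and 2836, 1048 and 589 genes in all. Atf5 was not fitted with at least 10 counts in every library. Medians in place of means for count ratios, chosen after seeing the data, moved each by under 1 SD.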
